A study of Mus musculus with 12 samples.

Results

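The transcripts of 9 immune checkpoint ligands, Cd274, Pdcd1lg2, Pvr, Nectin2, Lgals9, Cd80, Cd86, Cd276 and Vsir, were followed in single-cell data from mouse tumours of a series on melanoma rejection. The 9 genes were taken by symbol from the 32285 gene rows of the count matrices, and all 9 symbols were found. Unique molecular identifiers (UMIs, 1 per captured transcript) were summed for each hashtag, an antibody carrying a DNA barcode that marks the cells of 1 tumour or 1 day 0 sample. The sums were made separately in cells of the grafted line, in macrophages and in dendritic cells, and are given as CPM, the gene's UMIs per 1000000 UMIs of that class.

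All grafted cells derive from SCC35, as the labels call it. Lines 15 and 18 are labelled controls for the Mif knockout, and lines 19 and 24 are labelled Mif KO. Mif encodes a cytokine, macrophage migration inhibitory factor. The deposited hashtag sheet gave a line, a letter and a day (0, 6, 10 or 16), and what was sampled at day 0 is not stated. Each group thus rests on 2 lines, and all comparisons of groups compare these 4 lines. In line cells 21 control and 21 KO sums were used, in macrophages 18 and 17, and in dendritic cells 4 and 8. The strain, age and number of animals are not given in the labels, so the p-values measure the spread between hashtags. A further 3 hashtags called WT carried no group label and entered no comparison.

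Checkpoint ligands are surface or secreted proteins by which a tumour cell or an antigen-presenting cell tunes a T cell. Cd274 and Pdcd1lg2 encode the ligands of the inhibitory receptor Pdcd1, and the Cd274 gene is a classical target of interferon gamma acting through Irf1. Cd80 and Cd86 bind the activating receptor Cd28 and the inhibitory receptor Ctla4, and are typical of mature dendritic cells. Pvr and Nectin2 are adhesion molecules read by activating Cd226 and inhibitory Tigit. Lgals9 encodes galectin 9, a sugar-binding ligand of Havcr2. Cd276 and Vsir are members of the same immunoglobulin family as Cd80, with inhibitory roles, and Vsir is typical of myeloid cells.

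On build GRCm38, Cd274 lies at chr19:29367455-29388095 and Pdcd1lg2 at chr19:29410919-29471161, both on the plus strand and 22.8 kb apart. Pvr (chr7:19903578-19921160, minus) and Nectin2 (chr7:19716644-19750483, minus) share chromosome 7. Cd80 (chr16:38455561-38496335, plus) and Cd86 (chr16:36603869-36666081, minus) share chromosome 16. Lgals9 lies at chr11:78962974-78984946 on the minus strand, Cd276 at chr9:58524298-58555437 on the minus strand, and Vsir at chr10:60346851-60372684 on the plus strand.

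Cd274 and Lgals9 were the members whose levels in line cells and in macrophages were related across tumours, as described further on, so their promoters are printed here. The RefSeq promoter table (GRCm38.p6) held 7 of the 9 members; Pvr and Cd86 are named only. Each run covers 120 bases before to 30 bases after the start site, 5′ to 3′ on the gene's strand, from chr11:78984895-78985044 (minus) and chr19:29367318-29367467 (plus). Capitals mark matches to the interferon-stimulated response element, searched on both strands as TTTC, any 2 bases and TTTC again.
Lgals9: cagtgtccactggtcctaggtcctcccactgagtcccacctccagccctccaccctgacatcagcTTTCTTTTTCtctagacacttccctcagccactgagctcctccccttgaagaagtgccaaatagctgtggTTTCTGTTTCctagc
Cd274: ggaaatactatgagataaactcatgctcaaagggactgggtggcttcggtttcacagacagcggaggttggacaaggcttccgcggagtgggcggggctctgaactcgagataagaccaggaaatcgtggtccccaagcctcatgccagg
The Lgals9 window held 2 matches, whose first bases lie at -55 and +16 from the start site. None of the other 6 promoters matched in their full windows of 250 bases before to 50 after the start, and 3.443% of 32851 promoters in the table did. A STAT motif, TTCNNNGAA with N for any base, was also searched. It matched none of the 7 promoters, and 8.298% of the 32851. The matches are letters in a short window, not measured binding sites.

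The 6 libraries held 151385933 to 239699029 gene UMIs each, and 100459 of 163866 cells that passed the filters carried a single hashtag. Line cells numbered 66622 (median 6994 UMIs per cell), macrophages 12401 (2682) and dendritic cells 741 (2943). Mif in line cells was 2286 ± 371 CPM in controls (SD, n = 21, 1755 to 3110) and 299 ± 236 CPM in KO lines (SD, n = 21, 45.1 to 772), without overlap, as was true of 0.21% of 11932 genes. The line cells did not carry a melanocyte programme: the summed level of Mlana, Pmel, Dct, Tyr, Tyrp1, Mitf and Sox10 was 6.65 to 23.4 CPM, against 10.97 to 60.5 CPM in macrophages. Line RNA in macrophages was gauged from the 20 genes that were scarcest there, among 743 genes of at least 200 CPM in line cells. They stood at 11.9% to 24.9% of their line-cell level. Whether macrophages made this RNA themselves was not tested. In the other direction, macrophage markers that no gate used stood at a median of 0.250% to 0.755% of their macrophage level in the line cells of the 4 lines. Pairs of libraries shared 570 to 1503 barcodes among passing cells, 3.41% to 4.83% of the smaller library.

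By the test over all lines, macrophages held more transcript of 7 of the 9 ligands than line cells of the same tumour (Cd276, the weakest of them, not in each line), and dendritic cells more of 6 ligands than macrophages. Levels here are shares of the UMIs of a class, not counts per cell. The exceptions were Pvr, whose difference between line cells and macrophages did not pass, Nectin2, which was higher in line cells, and Lgals9 and Vsir, which were highest in macrophages. Line cells and macrophages were compared within 35 tumours by edgeR with the tumour as a block, where 79.8% of 12896 genes passed an adjusted p of 0.05 (Benjamini-Hochberg) and 37.3% were higher in macrophages. Dendritic cells and macrophages were compared within 12 tumours, where 38.8% of 5714 genes passed and 18.9% were higher in dendritic cells. Both shares are large, so a call alone sets no member apart. The dendritic gate counted Ccr7, a gene of mature dendritic cells, so its cells need not stand for all dendritic cells. In the class means that follow, line cells include the 7 day 0 sums, while these tests used tumours alone.

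The ligands of Pdcd1 were higher in both myeloid classes than in line cells. Cd274 stood at 8.23 ± 7.33 CPM in line cells (SD, n = 42), 76.1 ± 53.2 in macrophages (n = 35) and 256 ± 89.2 in dendritic cells (n = 12). The rise from line cells to macrophages was 3.20 ± 0.12 on the log2 scale (estimate ± SE, adjusted p = 4.2e-26) and from macrophages to dendritic cells 1.20 ± 0.17 (adjusted p = 1.5e-06). Pdcd1lg2 followed the same order at 0.626 ± 0.610, 10.2 ± 12.95 and 103 ± 44.9 CPM. In edgeR it was 3.62 ± 0.40 higher in macrophages than in line cells on the log2 scale, and 2.50 ± 0.28 higher again in dendritic cells.

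The Cd28 ligands showed the same order, with a wider gap to the line cells for Cd86. Cd86 was 0.636 ± 0.839 CPM in line cells, 92.5 ± 33.0 in macrophages and 329 ± 131 in dendritic cells (SD, n = 42, 35 and 12). Cd80 was 1.83 ± 1.28, 23.8 ± 9.52 and 137 ± 47.2 CPM. Log2 differences between macrophages and line cells were 7.58 ± 0.16 for Cd86 and 3.80 ± 0.21 for Cd80, and between dendritic cells and macrophages 1.66 ± 0.21 and 2.25 ± 0.22. The line-cell level of Cd86 was 0.312% to 1.19% of the macrophage level in the 4 lines, in the range of macrophage markers that line cells should lack. Its UMIs in line cells are therefore not read as expression by the line.

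The Tigit and Cd226 ligands were present in line cells. Pvr stood at 35.6 ± 8.68 CPM in line cells and 35.3 ± 10.5 in macrophages, a log2 difference of 0.01 ± 0.07 (edgeR, adjusted p = 0.90), and at 73.6 ± 20.1 in dendritic cells, 0.88 ± 0.18 above macrophages. The line-cell mean of Pvr includes 7 day 0 sums at 21.1 CPM, and the tumour sums averaged 39.7, 38.0 and 38.0 CPM at days 6, 10 and 16. The sign of the Pvr difference between line cells and macrophages turned with the scaling and the gate. Nectin2 was 16.97 ± 3.56 CPM in line cells, 6.25 ± 3.02 in macrophages and 28.3 ± 20.7 in dendritic cells. It was lower in macrophages than in line cells by a log2 difference of -1.17 ± 0.11 and higher in dendritic cells than in macrophages by 1.96 ± 0.45. The line-cell level of Nectin2 was 181% to 321% of the macrophage level in the 4 lines, so the macrophage level lay above the share that the scarcest line genes reached there.

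Lgals9 and Vsir peaked in macrophages. Lgals9 was 57.9 ± 17.04 CPM in line cells, 131 ± 44.5 in macrophages and 59.5 ± 32.3 in dendritic cells, with log2 differences of 1.43 ± 0.06 and -1.21 ± 0.17 along that order. Vsir was 0.612 ± 0.459, 88.6 ± 20.1 and 15.0 ± 12.7 CPM, with differences of 7.29 ± 0.12 and -2.51 ± 0.26. As for Cd86, the line-cell level of Vsir lay in the range of macrophage markers. Cd276 was 20.8 ± 12.9 CPM in line cells, 20.2 ± 8.43 in macrophages and 7.04 ± 7.65 in dendritic cells, where too few UMIs were counted for a test. The line-cell level of Cd276 was 68.5% and 57.4% of the macrophage level in lines 15 and 18, 102% in line 19 and 205% in line 24, so the order turned in line 24. Its difference between macrophages and line cells was 0.33 ± 0.13 (edgeR, adjusted p = 0.0231), a call that was lost without line 15 (0.17, adjusted p = 0.37), without line 18 (0.07, adjusted p = 0.68) and under a stricter line gate (0.18, adjusted p = 0.20).

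**Figure D1:**
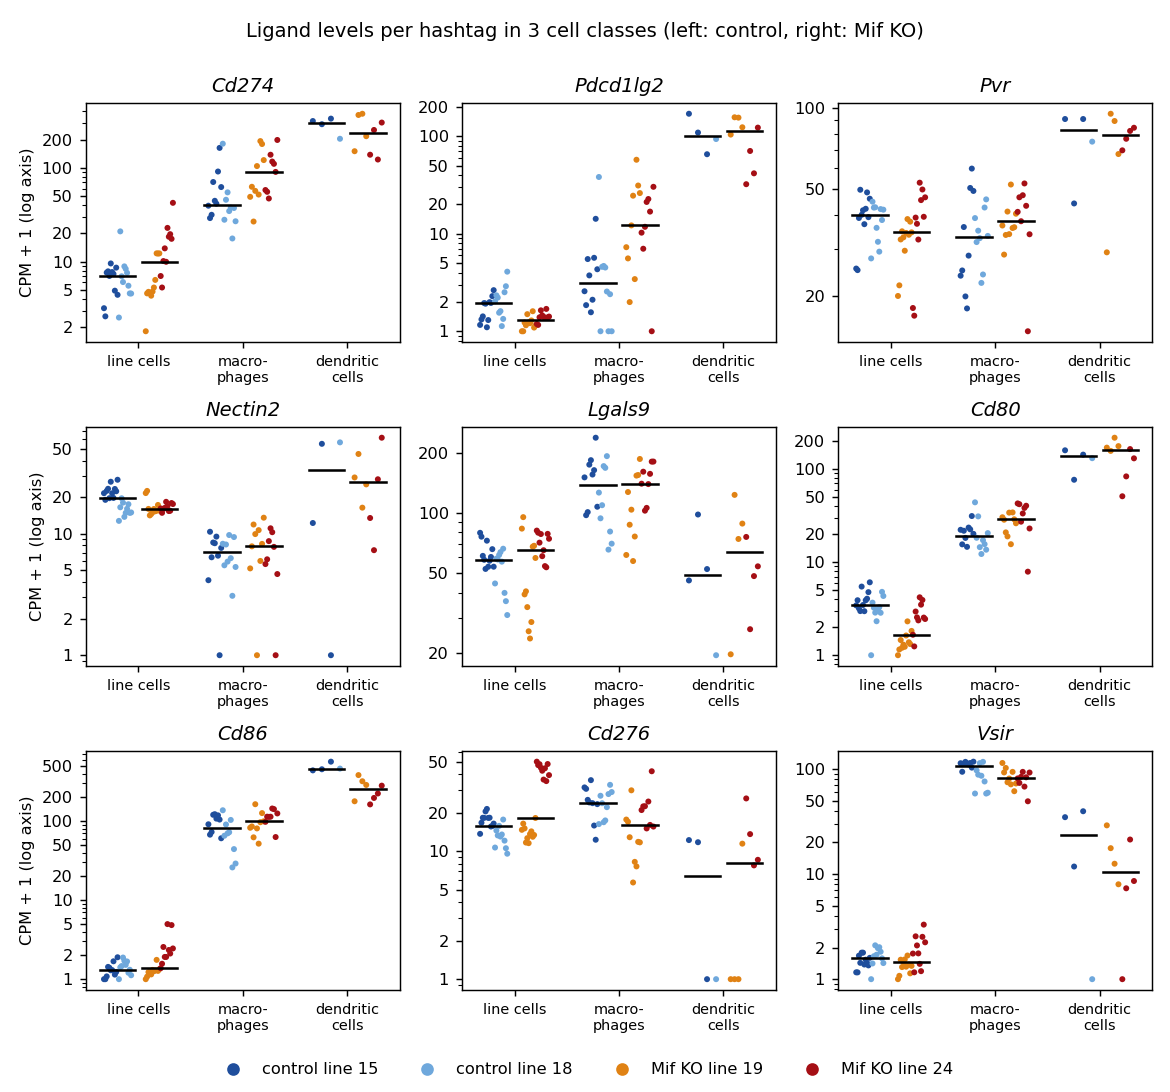
Level of each ligand (CPM + 1, log axis) per hashtag in line cells, macrophages and dendritic cells; points are hashtags coloured by line, control on the left and Mif KO on the right of each class, and bars are medians. Cd274, Pdcd1lg2, Cd80 and Cd86 climb from line cells to dendritic cells, Vsir and Lgals9 peak in macrophages, and the medians of Pvr in line cells and macrophages lie close.

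Among dendritic cells, those with at least 2 UMIs of Ccr7, the homing receptor of mature migratory dendritic cells, were set beside those with none. Pooled over hashtags, 538 Ccr7 cells held 567 UMIs of Cd274 (285 CPM) and 134 cells without Ccr7 held 44 (74.5 CPM). Pdcd1lg2 stood at 107 and 44.0 CPM, Cd80 at 145 and 67.8, Cd86 at 326 and 185, Pvr at 82.0 and 37.3, and Nectin2 at 29.7 and 5.08. Lgals9 went the other way, at 50.3 CPM with Ccr7 and 112 without. Vsir (13.6 and 18.6 CPM) and Cd276 (6.04 and 8.47 CPM) did so too, from few UMIs. In cells without Ccr7, Cd274, Pvr and Nectin2 (3 UMIs) lay near the pooled macrophage levels of 64.7, 32.4 and 6.77 CPM. For these 3 ligands the higher level of the dendritic class lay in its Ccr7 cells. Only 3 hashtags had enough cells of both kinds, so these are values without a test.

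Line cells of tumours carried more Cd274 and Pvr than the day 0 samples of the same line. These contrasts used the 30 hashtags of the 4 single-line libraries with line as a term, since day 0 occurs only there. At days 6, 10 and 16, 46.3%, 48.3% and 47.5% of 12994 genes passed the threshold, with 6, 5 and 5 of the 9 members among them. Macrophage RNA in the line gate moved the same way: the 8 ungated markers summed to 5.91 to 34.1 CPM at day 0 and 10.1 to 69.9 CPM later, and 4 of 8 were called higher at each day. The part of this RNA in the results for Cd86, Vsir, Pdcd1lg2 and Cd80 was not tested.

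Pvr separated the days most cleanly. At day 0 the control lines had 24.3 and 24.0 CPM (line 15) and 26.6 CPM (line 18), and the KO lines 19.0 and 20.9 CPM (line 19) and 17.04 and 15.9 CPM (line 24). The 35 sums of days 6 to 16 ranged from 28.2 to 51.8 CPM, so the periods did not overlap, as was true of 2.50% of 11932 genes. The log2 rises over day 0 were 1.05 ± 0.12, 0.998 ± 0.12 and 0.90 ± 0.12 at days 6, 10 and 16 (edgeR, adjusted p = 1.6e-07, 1.3e-07 and 7.3e-07). The 3 genes whose levels followed Pvr most closely over the 35 line-cell sums of days 6 to 16, among 5800 genes, were Il11 (Pearson r = 0.841), Gna13 (0.727) and Layn (0.717). The sums share libraries and lines, so these are descriptions.

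Cd274 started from 0.808 to 6.02 CPM at day 0. In line 15 it was 2.19 and 1.61 CPM at day 0 and 3.43 to 8.56 CPM later. Line 18 had 1.53 CPM at day 0 and 3.57 to 20.02 CPM later. Line 19 had 0.808 and 3.59 CPM at day 0, 11.3, 11.2 and 11.2 at day 6, and 3.33 to 5.38 at days 10 and 16. Line 24 had 6.02 and 4.30 CPM at day 0, 16.5 and 41.4 at day 6, 8.96 to 12.9 at day 10 and 17.4 to 21.9 at day 16. The highest sums of lines 19 and 24 were of day 6, that of line 15 of day 16, and that of line 18 its tumour A at day 10, which stood apart. Day 0 of line 24 overlapped the tumours of the other lines. The day 0 hashtags of line 24 held host cells, with 6 and 13 macrophages, 12 and 2 T cells and 138 and 190 cells of no class, where those of the other lines held at most 1 macrophage, 0 T cells and 2 to 14 cells of no class. The part of these cells in the Cd274 level was not tested. The log2 rises were 1.73 ± 0.39, 1.60 ± 0.39 and 1.61 ± 0.38 (edgeR, adjusted p = 0.00080, 0.0012 and 0.0011), and they kept the call under all 7 alternatives.

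Among the genes closest to Cd274 over the 35 line-cell sums of days 6 to 16 were Gbp2 (r = 0.955) and Gbp7 (0.951), which are textbook interferon-induced genes. Of the 8 interferon gamma signalling genes, 5, 7 and 6 were called higher at days 6, 10 and 16 and none lower, where 23.8%, 24.8% and 24.2% of all genes were called higher. Irf1 rose by 2.92, 2.84 and 2.78 on the log2 scale and Socs1, a feedback inhibitor, by 2.59, 2.12 and 1.72. The list's medians were 0.64, 0.68 and 0.74, beside medians over all genes of 0.00, -0.01 and -0.02.

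Lgals9 was lower in each tumour than at day 0 in lines 15, 19 and 24, and line 18 departed from this. In line 19 it was 82.4 and 94.2 CPM at day 0, 66.8, 67.5 and 58.6 at day 6, 38.2, 39.6 and 32.9 at day 10, and 24.7, 22.6 and 27.5 at day 16. In line 18 it was 43.5 CPM at day 0, 29.9 to 38.9 at day 6 and 56.1 to 65.2 at days 10 and 16. Line 15 had 78.5 and 75.1 CPM at day 0 and 51.5 to 71.7 CPM later, and line 24 had 80.6 and 78.6 CPM at day 0 and 52.5 to 77.6 CPM later. Day 0 sums are few, and the share of all genes that part the days within a line was not counted. Over all lines day 16 passed, at -0.53 ± 0.19 (edgeR, adjusted p = 0.0264), a call lost without line 19 (-0.12, adjusted p = 0.47) and without line 15 (-0.62, adjusted p = 0.058). Day 10 stood at -0.33 (adjusted p = 0.16) and passed with all libraries (-0.42, adjusted p = 0.042) and without line 18 (-0.46, adjusted p = 0.046). Its closest genes were Lgals3bp (r = 0.833), Sp100 (0.823) and Xaf1 (0.802).

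The sparse ligands also moved. Pdcd1lg2 was 2.22 ± 0.50 and 1.64 ± 0.50 above day 0 at days 6 and 10, and 0.44 ± 0.57 at day 16, which did not pass, with levels of 0 to 1.02 CPM at day 0 and 0.0911 to 3.08 CPM later. The day 0 sums held 10 UMIs of Pdcd1lg2 in all, so its rise is not read as made by the line. The day 10 call was lost without line 15 (adjusted p = 0.052) and without line 24 (adjusted p = 0.053). Cd80 was 1.19 ± 0.38 above day 0 at day 6 (edgeR, adjusted p = 0.0121), a call that was lost without line 18 (0.97, adjusted p = 0.056) and without line 24 (0.75, adjusted p = 0.11). At days 10 and 16 it stood at 0.82 and 0.85 without passing (adjusted p = 0.070 and 0.067). Both days passed without a count filter (adjusted p = 0.049 and 0.046), with all libraries (adjusted p = 0.042 and 0.0078) and without line 15 (2.27 and 2.33, adjusted p = 0.00095 and 0.0010). Cd86 rose by 2.54, 1.97 and 2.59 and Vsir by 1.60, 1.74 and 1.62, from levels that cannot be told apart from macrophage RNA. Nectin2 and Cd276 did not pass at any day, though without line 19 Nectin2 passed at days 6 and 10 (0.28 at both, adjusted p = 0.036 and 0.020). Whether the change from day 0 differed between KO and control lines was tested as an interaction, in which 43.3% of 13246 genes passed. It passed for Cd80 (1.95 ± 0.58, adjusted p = 0.0077), Pvr (0.44 ± 0.17, adjusted p = 0.0404) and Cd276 (-0.33 ± 0.13, adjusted p = 0.0381). Without line 15 the Cd80 estimate was -5.58 (adjusted p = 0.38), since line 18 then gave the only control day 0 sum, at 0 UMIs. Cd80 also lost the call without line 24 (1.49, adjusted p = 0.28), Pvr without line 24 (0.14, adjusted p = 0.55), line 15 (0.63, adjusted p = 0.15) or line 18 (0.36, adjusted p = 0.18), and Cd276 in 6 of 7 alternatives. Lgals9 did not pass at -0.32 (adjusted p = 0.31), but did without a count filter (-0.36, adjusted p = 0.012), at day 16 alone (-0.95, adjusted p = 0.012) and without line 24 (-0.79, adjusted p = 0.0022), where Nectin2 passed too (-0.58, adjusted p = 0.0073).

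**Figure D2:**
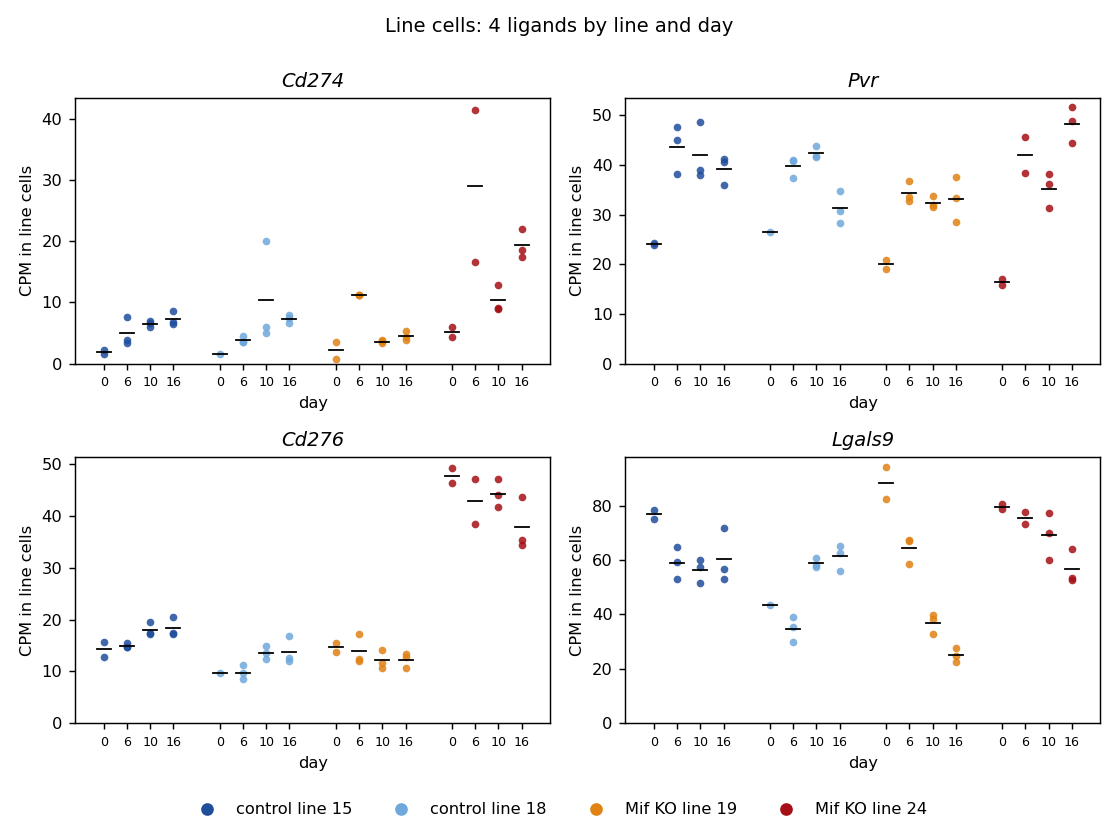
Cd274, Pvr, Cd276 and Lgals9 in line cells (CPM, axes from 0) by day and line; points are hashtags and bars are means. Pvr lies between 15.9 and 26.6 CPM at day 0 and above that range afterwards in each line, Cd276 is high in line 24 on every day, and Lgals9 steps down in line 19.

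Between KO and control line cells, the test called Cd274 and Cd276 higher and Pdcd1lg2, Cd80 and Nectin2 lower in KO. But the first pair was high in line 24 and not in line 19, and Nectin2 was high in line 15 and not in line 18. Cd80 was low mainly in line 19. Cd86 was also called higher, from UMIs that are not read as expression by the line, and Pvr, Lgals9 and Vsir did not pass. In this comparison 49.9% of 12939 genes passed (26.7% higher, 23.2% lower), so the members' 6 of 9 is near the background. The median of the members was 0.00 on the log2 scale and that of all genes 0.02.

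Cd274 was 1.53, 6.03 and 20.02 CPM in controls (lowest, median, highest, n = 21) and 0.808, 8.96 and 41.4 CPM in KO lines (n = 21), with wide overlap. The difference was 0.80 ± 0.26 (edgeR, adjusted p = 0.0115). It rested on line 24, with a mean of 15.7 CPM, while line 19 at 5.66 CPM lay between control lines 15 and 18 at 5.45 and 6.61 CPM. Without line 24 the difference was 0.04 (adjusted p = 0.92), and without line 15 0.68 (adjusted p = 0.17). The call was also lost with library as a term (1.05, adjusted p = 0.12) and with 1 sum per line (0.64, adjusted p = 0.63).

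Cd276 was high in line 24 alone. Its level there was 34.5 to 49.3 CPM (n = 10), day 0 included, against 8.59 to 20.5 CPM in the 32 sums of the other 3 lines, with no overlap; 2.52% of 11932 genes separated line 24 from the rest in this way. Line 24 exceeded line 19 by 1.63 ± 0.09 on the log2 scale (edgeR, adjusted p = 2.3e-19), where 57.1% of 13079 genes passed. The KO effect of 0.86 ± 0.20 (adjusted p = 0.00048) became -0.09 without line 24, and lost its call with library as a term (0.54, adjusted p = 0.070) and with 1 sum per line (0.95, adjusted p = 0.63). Over days 6 to 16 the levels of Dclk1 (r = 0.964), AC133103.1 (0.947) and Wsb1 (0.930) followed Cd276 most closely.

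The line means of Cd80 and Pdcd1lg2 were lower in both KO lines than in both control lines. Cd80 was low mainly in line 19. Cd80 had line means of 3.01 and 2.14 CPM in lines 15 and 18 and 0.436 and 1.73 CPM in lines 19 and 24, a difference of -1.52 ± 0.30 (edgeR, adjusted p = 5.7e-05). Line 24 exceeded line 19 in Cd80 by 1.76, a call lost in 2 of 4 alternatives. In tumours alone Cd80 stood at 2.055 ± 0.716 CPM (SD) in line 24 and 2.38 ± 0.771 CPM in line 18. At day 0 line 24, at a mean of 0.451 CPM, lay above the 1 sum of line 18, at 0 CPM. Over 15 alternatives the KO difference of Cd80 ranged from -2.379 to -0.645, and 2 lost the call. Pdcd1lg2 had 0.731 and 1.17 CPM in controls and 0.223 and 0.411 CPM in KO lines, a difference of -1.36 ± 0.30 (edgeR, adjusted p = 0.00027), and without line 19 it was -0.76 (adjusted p = 0.070). Pdcd1lg2 in both KO lines and Cd80 in line 19 lay within the range of macrophage markers, as Cd86 and Vsir did. These 3 levels lay above most of the markers, and their source was not tested. They are not read as expression by the line. Pdcd1lg2 was 1.43% of the macrophage level in line 19 and 3.78% in line 24, and Cd80 2.14% in line 19, where the markers reached 2.69% (line 19) and 4.53% (line 24). Both tops were of Unc93b1, with Cx3cr1 next at 2.67% and 2.86%, while the marker medians were 0.285% and 0.755%. Cd80 in line 24, at 5.39%, lay above the range of the markers. Single sums overlapped in both genes, from 0 to 5.06 CPM in controls and 0 to 3.19 CPM in KO lines for Cd80. An exact permutation test over the 4 line means gives 0.33 for both genes, the smallest p that 2 lines against 2 allow. When each line was reduced to 1 sum, edgeR called 0 genes (1381 had an unadjusted p under 0.05), and DESeq2 over hashtags called 7378.

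Nectin2 was higher in line 15 (mean 21.5 CPM) than in lines 18, 19 and 24 (14.9, 15.7 and 15.5 CPM). The KO difference of Nectin2, -0.24 ± 0.08 (edgeR, adjusted p = 0.0192), was 0.09 without line 15. The call was lost without line 24 (-0.22, adjusted p = 0.0995), under the stricter gate (-0.12, adjusted p = 0.21), with library as a term (-0.23, adjusted p = 0.19) and with 1 sum per line (-0.28, adjusted p = 0.70). Control line 18 differed from control line 15 by -0.57 ± 0.08 (edgeR, adjusted p = 5.5e-07), where 24.5% of 13079 genes passed. That call was lost with library as a term (-0.46) and at day 0 alone (-0.79), where each time 1 line 18 sum stood beside line 15. Pvr differed by -0.13 ± 0.07 (adjusted p = 0.14), Lgals9 by 0.00 ± 0.13 (adjusted p = 0.98) and Vsir by 0.09 ± 0.27 (adjusted p = 0.81). Pvr passed with another hashtag call (-0.17, adjusted p = 0.044), without line 18 (-0.23, adjusted p = 0.024) and without line 24 (-0.21, adjusted p = 0.0084), and Vsir without line 19 (0.84, adjusted p = 0.0092). Cd86 differed by 1.05 ± 0.39 (adjusted p = 0.0236), with a mean of 1.60 CPM in line 24 against 0.262 to 0.430 CPM in the others. Macrophage marker RNA was also highest in line 24, and its part in the Cd86 difference was not tested. The call was lost without line 15 (0.84, adjusted p = 0.21), without line 18 (1.25, adjusted p = 0.052), over days 6 to 16 alone (0.91, adjusted p = 0.066), with another hashtag call (0.40, adjusted p = 0.30) and with 1 sum per line (0.89, adjusted p = 0.70). With library as a term its sign turned (-0.19, adjusted p = 0.85).

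RNA of other cells moved with these differences. The 8 macrophage markers not used in a gate summed to 5.91 to 27.7 CPM in control and 12.5 to 69.9 CPM in KO line cells, with 31.8 to 69.9 CPM in line 24. 6 of the 8 were called higher and 1 lower. The 5 T-cell gate genes summed to 0 to 5.603 CPM in control and 0.404 to 15.4 CPM in KO line cells, and all 5 were called higher. The part of this RNA in the results was not tested. In the mixed libraries alone none of Cd274, Pdcd1lg2, Nectin2, Cd80 and Cd276 passed (edgeR, adjusted p = 0.23, 0.21, 0.39, 0.15 and 0.26), at estimates of 1.29, -1.44, -0.25, -1.40 and 0.78.

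Other ligands and the interferon gamma list were set beside the members. Of 18 other ligands and regulators 12 were tested in line cells, and 5 were higher in KO lines and 2 lower, against 26.7% higher and 23.2% lower of all genes. Vtcn1, another inhibitory relative of Cd80, was higher by 3.60 and Tnfrsf14 by 0.74, and H2-T23, Nectin1 and Cd47 by 0.50, 0.36 and 0.21. Cmtm4, a stabiliser of the Cd274 protein, was lower by a log2 difference of -0.33 and Lgals3 by -0.30. Of the 8 interferon gamma genes 6 were higher and none lower, among them Irf1 (0.71) and Socs1 (0.67), with a median of 0.43, against the same shares of all genes. Line 24 exceeded line 19 in 7 of these 8, where 29.5% of all genes were called higher.

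**Figure D3:**
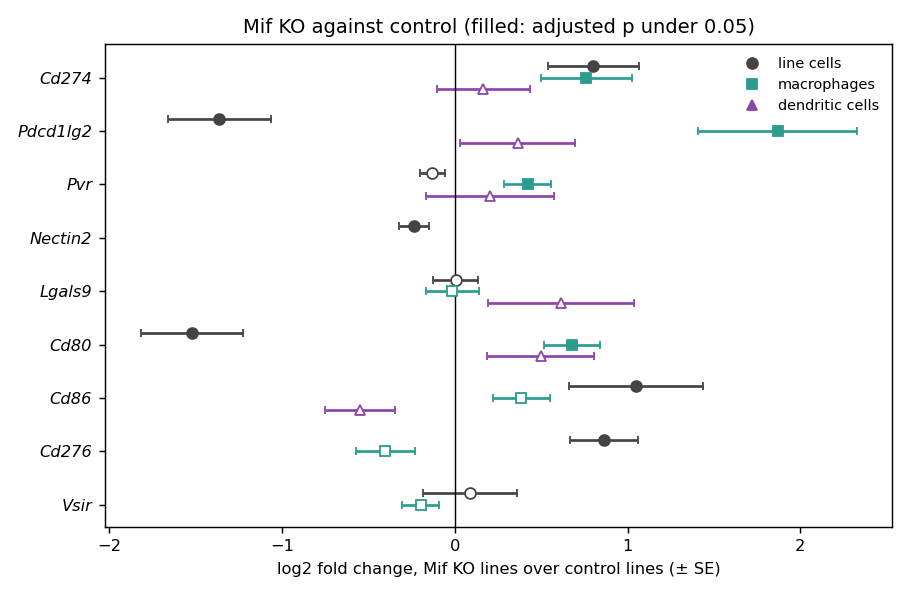
Log2 fold change of each ligand in Mif KO over control lines (estimate ± SE) in line cells (circles), macrophages (squares) and dendritic cells (triangles); filled symbols passed an adjusted p of 0.05. Pdcd1lg2 and Cd80 lie below 0 in line cells and above 0 in macrophages, and no dendritic symbol is filled.

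Macrophages of KO tumours carried more Cd274, Pdcd1lg2, Cd80 and Pvr than those of control tumours. These 4 of the 8 members that were tested passed (Nectin2 was filtered out), where 36.8% of 8689 genes passed and 18.9% were higher. Cd86, Cd276, Vsir and Lgals9 did not pass (edgeR, adjusted p = 0.063, 0.060, 0.14 and 0.96). The members' median was 0.40, against 0.00 for all genes.

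Pdcd1lg2 had the largest difference of the members, 1.87 ± 0.46 (edgeR, adjusted p = 0.0016). Its levels were 0, 2.15 and 37.2 CPM in control macrophages (lowest, median, highest, n = 18) and 0, 11.2 and 56.3 CPM in KO macrophages (n = 17), from 0 to 46 UMIs per tumour. At day 6 line 19 had 56.3, 30.2 and 25.1 CPM, line 24 had 29.3 and 0 CPM (8 and 0 UMIs), and lines 15 and 18 had 0 to 13.2 CPM. The groups overlapped: 2 control tumours, A of line 18 at day 10 (37.2 CPM) and B of line 15 at day 6 (13.2 CPM), lay above the KO median, and 2 KO tumours (0 and 0.991 CPM) below the control median.

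Cd274 was 16.7, 39.5 and 180 CPM in control macrophages and 25.8, 89.6 and 198 CPM in KO macrophages, a difference of 0.76 ± 0.26 (edgeR, adjusted p = 0.0205). Control values above 90 CPM were those of line 15 at day 6 (90.5 and 162 CPM) and line 18 at day 10, tumour A (180 CPM). In KO tumours, line 19 was highest at day 6 (192, 179 and 120 CPM), and line 24 was 89.6 and 198 CPM at day 6, 46.2 to 57.1 at day 10 and 109 to 137 at day 16. Cd80 was 11.2, 18.2 and 42.8 CPM in controls and 6.89, 27.8 and 41.6 CPM in KO tumours, a difference of 0.68 ± 0.16 (adjusted p = 0.0012). Pvr was 16.97, 32.1 and 58.5 CPM in controls and 13.8, 36.9 and 51.4 CPM in KO tumours, a difference of 0.42 ± 0.14 (adjusted p = 0.0151). Groups overlapped in all 4 genes. In macrophages of the WT tumours, which entered no comparison and share 1 mixed library, all 4 genes lay above the control medians. They stood at 97.8 to 258 CPM for Cd274, 8.89 to 37.2 for Pdcd1lg2, 23.2 to 38.2 for Cd80 and 39.7 to 48.3 for Pvr.

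All 4 calls were lost without line 24, at 0.59 for Cd274, 1.71 for Pdcd1lg2, 0.31 for Cd80 and 0.18 for Pvr (edgeR, adjusted p = 0.28, 0.071, 0.33 and 0.48), with 1 sum per line, and with library as a term. Over all 15 alternatives the estimates ranged from 0.59 to 1.03 for Cd274, 1.39 to 2.66 for Pdcd1lg2, 0.19 to 0.88 for Cd80 and 0.18 to 0.63 for Pvr. Without line 15, Cd274 (0.84, adjusted p = 0.076) and Pdcd1lg2 (1.39, adjusted p = 0.070) were lost. In the mixed libraries alone Cd80 (0.33, adjusted p = 0.43) and Pvr (0.32, adjusted p = 0.31) were lost, and under a stricter macrophage gate Pvr (0.33, adjusted p = 0.069). Without tumour A of line 18 at day 10, Cd274 was 1.03 (adjusted p = 8.9e-05) and Pdcd1lg2 2.66, and Cd86 (0.45), Cd276 (-0.45) and Vsir (-0.25) passed as well (edgeR, adjusted p = 0.0223, 0.0327 and 0.0411). Cd86 also passed without line 15 (0.64, adjusted p = 0.019) and without line 19 (0.49, adjusted p = 0.049). Cd276 passed without a count filter (-0.47, adjusted p = 0.036), without line 18 (-0.54, adjusted p = 0.021) and without line 24 (-0.81, adjusted p = 0.026), and Vsir without line 18 (-0.41, adjusted p = 0.0011).

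The dendritic gate genes summed to 14.6 to 49.0 CPM in control and 27.5 to 104 CPM in KO macrophages. In macrophages with no UMI of any of these genes, the differences were 0.73 for Cd274, 1.71 for Pdcd1lg2, 0.65 for Cd80 and 0.36 for Pvr, all still called (edgeR, adjusted p = 0.0273, 0.0059, 0.0025 and 0.0492). T-cell gate genes summed to 0 to 19.5 CPM in control and 0 to 34.4 CPM in KO macrophages, and macrophage markers outside the gates to 1814 to 5165 and 2998 to 5738 CPM. The part of these in the results was not tested. Among the interferon gamma genes, Jak2 (0.92), Irf1 (0.85), Socs1 (0.55) and Jak1 (0.27) were higher, and Ifngr1 (-0.29) and Ifngr2 (-0.34) lower. Of 8 other ligands tested, Cd40, H2-T23 and Cmtm6 were higher and Cd200, Tnfsf9 and Lgals3 lower. Of all genes 18.9% were higher and 17.9% lower in this comparison.

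From day 6 to day 16, 10.2% of 9126 genes passed in macrophages, and of 8 members Pvr alone, at -0.52 ± 0.17 (edgeR, adjusted p = 0.0406). Without line 15, whose values were 48.2 to 58.5 CPM at day 6 and 16.97 to 27.2 at day 16, it was -0.10 (adjusted p = 0.84), without line 18 -0.46 (adjusted p = 0.17), and in single-line libraries alone -0.65 (adjusted p = 0.086). Cd274 was at -0.68 ± 0.33 (adjusted p = 0.19) and Pdcd1lg2 at -1.11 ± 0.59 (adjusted p = 0.25); without line 18 both passed, at -0.88 and -1.27 (adjusted p = 0.0062 and 0.0446), as they did without a count filter, at -0.63 and -1.07 (adjusted p = 2.7e-05 and 0.0023). Pdcd1lg2 was -1.72 without line 24 (adjusted p = 0.12) and -0.35 without line 19 (adjusted p = 0.85), and Cd274 was -0.40 without line 19 (adjusted p = 0.58). Cd86 stood at 0.40 (adjusted p = 0.20) and passed without a count filter (0.44, adjusted p = 0.0084).

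**Figure D4:**
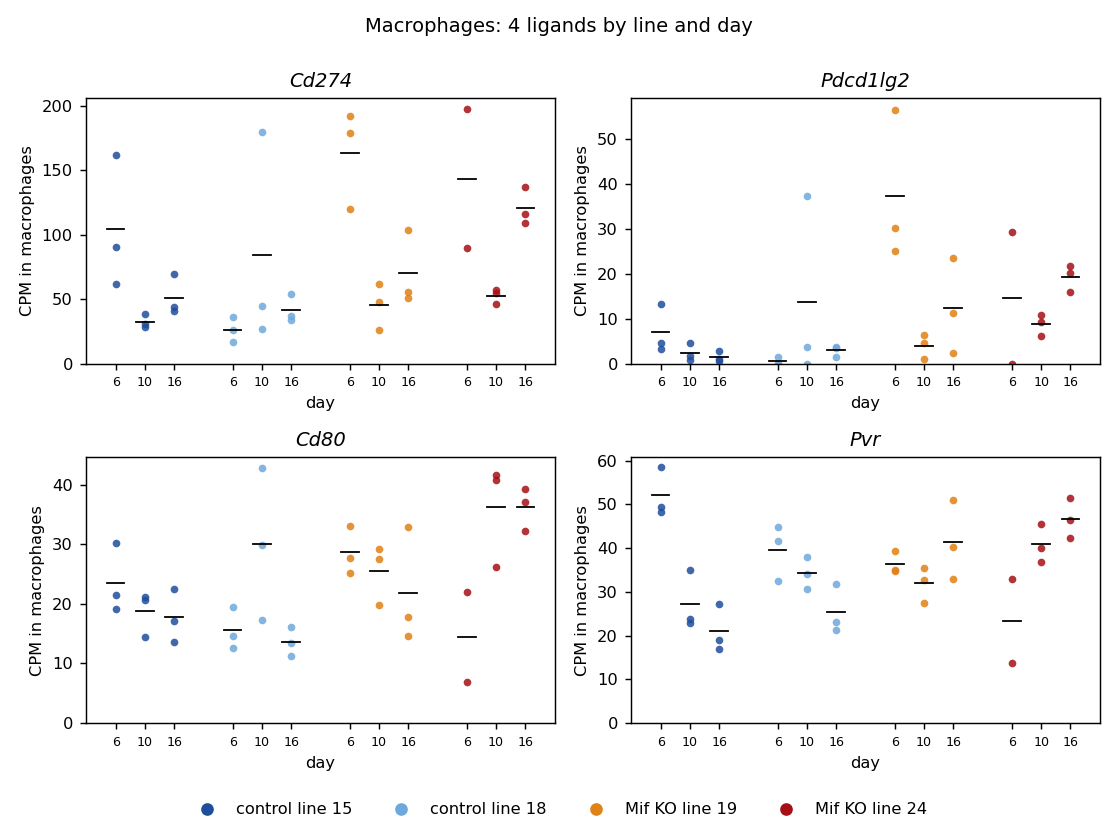
Cd274, Pdcd1lg2, Cd80 and Pvr in macrophages (CPM, axes from 0) by day and line; points are tumours and bars are means. The control tumour A of line 18 at day 10 stands at 180 CPM for Cd274 and 37.2 CPM for Pdcd1lg2, far above the other tumours of its line.

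In dendritic cells no ligand separated KO from control by the test. Of 3688 genes 0.813% passed, and of the 6 members tested 0 passed in edgeR, with Cd86 alone at an unadjusted p under 0.05, while DESeq2 called 32 genes in all. Cd86 was 439, 453, 566 and 462 CPM in the control tumours, all of day 6, and 382, 319, 287 and 281 CPM in the KO tumours of day 6, then 162, 178, 196 and 223 CPM in the later ones. The groups did not overlap, as was true of 2.05% of 5213 genes over all days and 5.95% at day 6 alone. Summed levels of the dendritic gate genes averaged 3770 CPM in KO (2707 to 4905) and 4751 CPM in control dendritic cells (4014 to 5300). Macrophage markers outside the gates averaged 1255 CPM (1047 to 1535) and 1605 CPM (1187 to 1865). The groups overlapped in both lists, and their part in the Cd86 values was not tested. The Cd86 difference was -0.55 ± 0.20 (edgeR, adjusted p = 0.27), and with tumours of at least 10 dendritic cells -0.69 (adjusted p = 0.0173). Cd274 was 203 to 334 CPM in control and 122 to 377 CPM in KO tumours, a difference of 0.16 ± 0.27. Cd80, Pdcd1lg2, Pvr and Lgals9 were at 0.50 ± 0.31, 0.36 ± 0.33, 0.20 ± 0.37 and 0.62 ± 0.42. The sums rest on 20 to 68 dendritic cells per tumour.

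Tumours with much Cd274 in macrophages had much Cd274 in line cells, a relation that passed over all tumours and within lines but not within line and day. Over 35 tumours the relation on the scale of log2(CPM + 1) had Pearson's r = 0.659 (permutation test, 100000 resamples, p = 2e-05, adjusted over 9 members 9e-05) and Spearman's rho = 0.613 (adjusted permutation p = 0.00077). Without the 2 tumours farthest from the median on the macrophage axis r was 0.605. It was 0.553 within the single-line libraries (n = 23) and 0.861 within the mixed ones (n = 12). By line it was 0.858 in line 18, 0.854 in line 19 and 0.953 in line 24, but -0.067 in line 15. In line 18, tumour A of day 10 stood apart in both classes, at 20.02 CPM in line cells and 180 CPM in macrophages. This tumour was kept in the check without 2 tumours and in the Cd274 values around means below. The r without it was not computed. Lgals9 gave r = 0.756 (adjusted permutation p = 9e-05, from the smallest raw p these resamples can give) and rho = 0.685, with 0.703 without the 2 farthest tumours, 0.729 and 0.814 within the library types and 0.439 to 0.825 within lines. These tumours share 4 lines, 3 days and 6 libraries, so the permutation was repeated within lines and within line and day, chosen after seeing the data. Around line means r was 0.724 for Cd274 and 0.724 for Lgals9 (adjusted permutation p = 9e-05 and 0.00014). Around the means of line and day it was 0.731 and 0.281, and neither passed the adjustment (permutation p = 0.0188 and 0.18, adjusted over 9 members 0.085 and 0.53). The other 7 ligands passed the adjustment in none of the 3 permutations. Cd86 around the means of line and day went the other way, at r = -0.442 (permutation p = 0.0137, adjusted 0.085), and Pdcd1lg2 over all tumours was at r = -0.352 (adjusted permutation p = 0.11). Both classes of a tumour share a library and free RNA, whose part in the relation was not tested; line-cell levels of Cd274 were 6.65% to 19.3% of the macrophage level.

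**Figure D5:**
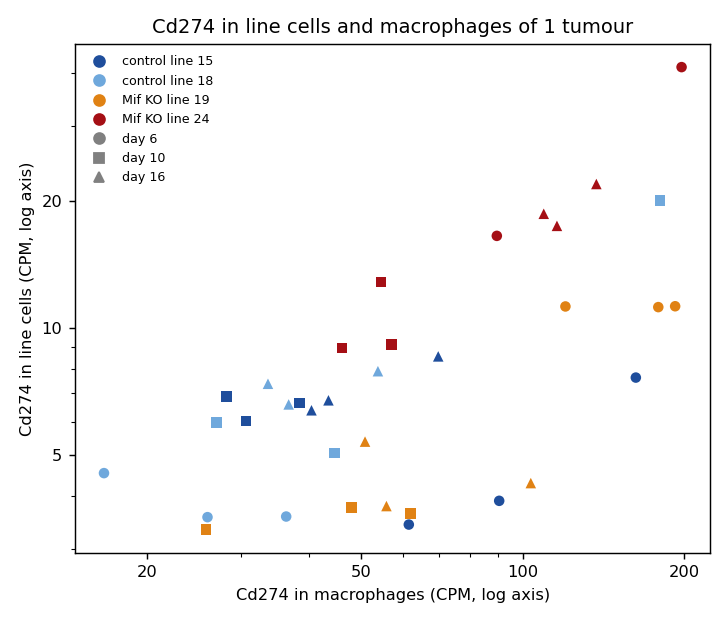
Cd274 in line cells against Cd274 in macrophages of the same tumour (CPM, log axes), coloured by line and shaped by day. Tumours of lines 18, 19 and 24 climb together from lower left to upper right, while the 9 tumours of line 15 show no such trend (r = -0.067). Tumour A of line 18 at day 10 stands apart from its line, at 180 CPM in macrophages and 20.02 CPM in line cells.

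The receptors of these ligands were measured in T cells of the same tumours, as levels only (control n = 15, KO n = 17). Pdcd1, the receptor of Cd274 and Pdcd1lg2, averaged 77.9 CPM in control and 133 CPM in KO tumours. Ctla4, the inhibitory receptor of Cd80 and Cd86, averaged 273 and 197 CPM, and the activating Cd28 127 and 123 CPM. Of the receptors of Pvr and Nectin2, Tigit averaged 163 and 171 CPM, Cd96 36.5 and 38.9, Cd226 27.8 and 33.0, and Pvrig 11.6 and 5.88. Havcr2, a receptor of Lgals9, averaged 30.7 and 21.5 CPM.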

How the data were processed

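The authors deposited UMI counts, not normalized, of each gene in each barcode for 6 libraries of the 10x Genomics 5′ kit with hashtag antibodies, made with Cell Ranger 6.0.0 on mm10, per the submitters' processing notes. Tumours were dissociated and sorted for live cells, per the labels' protocols. Of 6 libraries, 4 held 1 line each and 2 held several lines (mixed libraries). Sequences came from RefSeq and positions from GENCODE M21, which held 32158 (99.6%) of the 32285 gene IDs.

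Barcodes under 300 genes or over 15% mitochondrial UMIs were dropped. HTODemux (Seurat 5.3.0) called hashtags; 17.94% to 30.93% of passing cells were doublets and left out. Of 47 hashtags, 2 were not used, each holding under 0.1% of the hashtag counts in its library. Doublets within a hashtag remain. Line cells had no Ptprc UMI, at most 0.1% of UMIs from 24 immune genes, and few endothelial, fibroblast, mural or keratinocyte UMIs. Macrophages had at least 3 of 9 macrophage genes with at least 5 UMIs and few lymphocyte UMIs. Dendritic cells had at least 2 of 9 dendritic genes with at least 3 UMIs, at least 5 MHC class II UMIs and at most 3 C1q UMIs. Ccr7, Cacnb3 and Ccl22 were among these 9 dendritic genes. No gate used a member.

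Counts were summed per hashtag for classes of at least 20 cells and fitted with edgeR 4.0.16 (filterByExpr, TMM, glmQLFit, glmQLFTest; R 4.3.3), with Benjamini-Hochberg adjustment over all genes tested and a threshold of 0.05. Day was a term between groups. CPM are unscaled. The fits were tested on simulated sums without any line or library effect, so that test does not give the rate of false calls between these lines. Sums of 37 pairs of the same line and day were compared by chi-square per degree of freedom (1.713 to 35.42), and none was merged. The alternatives tried were RLE scaling, DESeq2 1.42.0, dropping the count filter, another hashtag call, stricter filters and gates, subsets of libraries or days, library as a term, 1 sum per line, and leaving out each line.

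Members and gene lists were chosen with earlier results of these data known. All 9 members were named, and the other genes come from fixed lists or from the 3 highest correlations with Cd274 or with members above 20 CPM. A gene that these rules name is not reported here. P-values cover the spread between hashtags of these 4 lines.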

Additional observations from a re-analysis of the deposited data

Results flagged for a closer look

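In 135 groups of 4 to 10 sums (1 gene, class, group and day), 16 had a highest or lowest sum far from the others. The rule flags about 1 group in 20 by chance only for independent, normally distributed values of 1 population. These groups pool sums of different lines and reuse the same tumours across genes. That rate does not apply to them, and no excess over chance is read from the 16. The control tumour A of line 18 at day 10 stood highest in 4 of the 16 flagged groups. Its Cd274 was 20.02 CPM in line cells, with the next control at 6.88 CPM, and 180 CPM in macrophages, with the next at 44.7 CPM. Its macrophages held 37.2 CPM of Pdcd1lg2 (46 UMIs), with the next at 4.50 CPM, and 137 CPM of Cd86, with the next at 90.4 CPM.

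Among KO line cells, the day 6 tumour C of line 24 had 41.4 CPM of Cd274 (200 UMIs), against 16.5 CPM for the next. At day 16, tumour A of line 24 had 3.98 CPM of Cd86 (10 UMIs) and tumour C 1.53 CPM of Vsir (11 UMIs). In control line cells, line 15 gave the remaining extremes: 7.63 CPM of Cd274 and 0.894 CPM of Cd86 at day 6, and 4.46 CPM of Cd80 and 51.5 CPM of Lgals9 (the lowest) at day 10.

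In macrophages, the day 6 tumour A of line 24 was highest for Cd276 at 41.3 CPM (6 UMIs) and lowest for Pvr at 13.8 CPM (2 UMIs), the day 6 tumour B of line 15 was highest for Pdcd1lg2 at 13.2 CPM (7 UMIs), and Nectin2 was at 0 UMIs in the day 16 tumour B of line 19. The day 16 tumour B of line 18 was lowest for Vsir at 85.1 CPM, with the next control at 109 CPM.

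The change of line cells from day 0 differed between KO and control lines in the test of the difference itself for Pvr (0.44), Cd276 (-0.33) and Cd80 (1.95) on the log2 scale (edgeR, adjusted p = 0.0404, 0.0381 and 0.0077); all 3 calls depend on single lines.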

How the results depend on the processing

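Each line served as the replicate that was left out. Counts of called genes stayed within 1.5 times of those reported in 79 comparisons and moved further in 25. Log2 differences of members kept their sign and their side of the threshold in 676 comparisons, while 73 lost a call, 35 gained one and 58 changed sign, most of them near 0 and not called.

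KO against control in line cells called 6459 genes, 0 with 1 sum per line, 1774 with library as a term and 167 in the mixed libraries alone, and 4467 to 7766 without single lines. In macrophages it called 3196, 64 with 1 sum per line, 716 with library as a term and 655 in the mixed libraries alone, and 1029 to 3466 without single lines. In dendritic cells it called 30, 80 with at least 10 cells, 1 with library as a term, 7 in the mixed libraries alone, 98 without a count filter and 7 with another hashtag call, and 5 to 18 without single lines. Line 24 against 19 called 7462 genes and 1175 with library as a term. Line 18 against 15 called 3198, 70 with library as a term and 1139 at day 0 alone. Macrophages at day 16 against day 6 called 927, 390 in single-line libraries and 272 to 980 without single lines. Dendritic cells against macrophages called 2219, 1381 under the stricter gate and 1314 to 2183 without single lines. The change from day 0 called 5737, and 2667 to 5284 without single lines. Line 18 gave 1 sum to the day 0 fit and 1 to the mixed library that it shares with line 15. With library as a term, that 1 sum also links lines 24 and 19, which share no library. In all of these counts the cause of the change was not tested.

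Signs of log2 differences turned as follows, and the cause was not tested. KO against control in line cells gave for Lgals9 -0.0172 without a count filter, -0.0167 with the stricter cell filter, -0.0220 with the stricter gate, -0.0515 in mixed libraries, -0.12 with library as a term and -0.0375 over days 6 to 16. Vsir gave -0.25 with another hashtag call, and library as a term gave -0.19 for Cd86 and -0.0276 for Vsir. Without single lines the ranges were -0.48 to 0.0904 for Nectin2, -0.62 to 0.84 for Vsir, -0.24 to 0.22 for Lgals9 and -0.0938 to 1.52 for Cd276. In macrophages Lgals9 gave 0.10 in mixed libraries and 0.0889 with library as a term, and without single lines -0.22 to 0.16, with -0.41 to 0.0315 for Vsir. In dendritic cells mixed libraries gave -0.37 for Cd274 and -0.27 for Pvr, library as a term -0.61 and -0.42, 1 sum per line -0.14 for Cd274 and -0.0781 for Pdcd1lg2, and at least 10 cells -0.13 for Cd274 and -0.0075 for Cd80. Lgals9 ranged from -0.0426 to 2.19 there without single lines.

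Against day 0, Cd276 at day 6 gave -0.0115 with all libraries and -0.0375 to 0.0384 without single lines, and at day 16 -0.0745 to 0.17. Nectin2 at day 16 gave 0.0086 with RLE scaling and 0.0081 without a count filter, and -0.13 to 0.17 without single lines, where Pdcd1lg2 ranged from -0.13 to 1.05. Without single lines the interaction ranged from -5.58 to 2.20 for Cd80, -0.79 to 0.10 for Lgals9 and -4.49 to 0.65 for Vsir. Line 24 against 19 with library as a term gave -0.66 for Pdcd1lg2, -0.30 for Pvr and 0.20 for Nectin2, and at day 0 alone -0.36 for Pvr and -0.24 for Lgals9. Line 18 against 15 with library as a term gave -1.15 for Pdcd1lg2, 0.41 for Lgals9 and -0.13 for Cd86, and at day 0 alone -0.42 for Cd274 and 0.0853 for Pvr. Macrophages at day 16 against day 6 gave -0.0142 for Lgals9 in single-line libraries, -0.39 to 0.33 without single lines, and -0.33 to 0.48 for Cd276. Macrophages against line cells gave -0.0277 for Pvr with RLE scaling, -0.11 under the stricter gate and -0.0692 to 0.12 without single lines.

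The stricter gate for KO against control in dendritic cells and the test of Ccr7 dendritic cells were not run, since too few tumours had enough cells. The alternatives added after seeing the data were those with at least 10 dendritic cells, day 6 or days 6 to 16 alone, without tumour A of line 18 at day 10, and macrophages with no dendritic gate UMI. No paired analysis was possible because replicates of the groups are different lines that share no number; the mixed libraries hold lines of both groups, and the fits with library as a term block on them. Cd86, Vsir and Pdcd1lg2 in line cells and Nectin2 in macrophages rest on few UMIs, which limits their precision.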

Other observations

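The 3 tumours that the hashtag sheet calls WT carry no group label and are given as single values at days 6, 10 and 16. Cd274 was 16.5, 10.9 and 8.92 CPM in their line cells and 258, 97.8 and 98.7 CPM in their macrophages. Pvr was 53.6, 53.0 and 43.6 CPM in line cells. Lgals9 was 90.2, 58.1 and 61.2 CPM in line cells and Cd276 20.3, 18.0 and 21.4 CPM. Pdcd1lg2 in macrophages was 37.2, 8.89 and 13.2 CPM. The 24 dendritic cells of the day 6 tumour held 42 UMIs of Cd274 (575 CPM), 36 of Cd86 (492.6 CPM) and 16 of Pdcd1lg2 (219 CPM).

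Other ligands were compared between dendritic cells and macrophages. Of 11 other ligands tested within 12 tumours, 9 were higher in dendritic cells and 1, Lgals3, was lower by a log2 difference of -0.41, where 18.9% of 5714 genes were called higher. Cd70, the ligand of Cd27, was higher by 7.44, Tnfsf4, the ligand of the co-stimulatory receptor Ox40, by 5.61, Cd200 by 5.06, Icosl by 2.81 and Cd40 by 2.23 (edgeR, largest of these 5 adjusted p = 4.3e-06). T cells, which were no class of the comparisons, held 43.0 ± 17.5 CPM of Pdcd1lg2 (SD, n = 32), above the 10.2 CPM mean of macrophages, and 50.3 ± 23.3 CPM of Cd274.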
